A study of Mus musculus with 2 samples.

Results

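miR-124 is the miRNA long regarded as the main miRNA of neurons, and it was followed here in every form in which it was read from whole mouse brain. The study prepared small RNA libraries from young mice (5 months) and old mice (24 to 25 months), all adult male C57BL/6J, an inbred laboratory strain, with no further treatment or genetic change given in the labels. The libraries of 2 mice were combined at each age before sequencing, so there was 1 library per age and no spread between animals could be computed. A tag is a distinct sequence with its raw number of reads, the unit the authors deposited, and there were 4523267 reads in 372464 tags in young and 6658732 reads in 505732 tags in old. The miR-124 members were chosen in 3 steps. The tag whose young and old counts were those listed for mmu-miR-124 in the study's supplementary count list is called the exact tag. All tags with the same first 18 nucleotides were added, and then all tags whose 5′ end lay 1 or 2 nucleotides before or after that start on the same precursor. This gave 549 of the 789591 distinct tags, 456 of them present in young and 394 in old.

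A miRNA is cut from a hairpin precursor as a short duplex, of which 1 strand is kept in the Argonaute protein and guides it to messenger RNAs. Pairing to targets is set mainly by the seed, bases 2 to 8 counted from the 5′ end, so a form that starts 1 base earlier or later carries another seed, whereas forms that differ at the 3′ end keep the seed. Such variants of 1 miRNA are called isomiRs. miR-124 is made in neurons as they differentiate and is known for holding down messages of other cell types, among them Ptbp1, a splicing regulator of non-neuronal cells. The partner strand cut from the same hairpin is miR-124*.

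The tags on which the results turn are printed 5′ to 3′ as the files give them, in DNA letters, with the seed in capitals. They show the exact tag, the abundant forms with the same start, the forms with a shifted start and thus a shifted seed, both main forms of miR-124*, and a miRNA candidate of the study that shares a seed with 1 of the shifted forms.
exact tag: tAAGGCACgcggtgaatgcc
start 0, 1 base longer: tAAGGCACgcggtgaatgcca
start 0, 2 bases longer: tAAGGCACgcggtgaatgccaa
start 0, 1 base longer with 1 added U: tAAGGCACgcggtgaatgccat
start 0, 1 base longer with 2 added U: tAAGGCACgcggtgaatgccatt
start 0, 1 base shorter: tAAGGCACgcggtgaatgc
start 0, 2 bases shorter with 1 added A: tAAGGCACgcggtgaatga
start −1, 1 base shorter at the 3′ end: tTAAGGCAcgcggtgaatgc
start −1, 2 bases longer at the 3′ end: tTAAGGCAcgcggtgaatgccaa
start +1, 1 base longer at the 3′ end: aAGGCACGcggtgaatgcca
start +2, 1 base longer at the 3′ end: aGGCACGCggtgaatgcca
miR-124*, listed form: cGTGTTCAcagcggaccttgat
miR-124*, 1 base shorter: cGTGTTCAcagcggaccttga
candidate miRNA seq_278622_x85: cTAAGGCAggcagacttcagtg

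The exact tag matched 3 places of the mouse genome (NCBIM37, the assembly also called mm9), all on the plus strand. One lies at chr2:180628788-180628807 in the exon of the annotated miRNA gene Mir124a-3. Another lies at chr14:65209546-65209565 in Mir124a-1, inside an exon of the long noncoding RNA gene A930011O12Rik. The remaining place, chr3:17695723-17695742, is in an annotated miRNA gene listed as AC124807.1. The 3 precursors share the exact tag, the next 4 bases and the bases just before the start, so the reads do not tell which gene they came from. Of the reads that matched a precursor perfectly, 142555 in young and 89487 in old fitted all 3 places. Reads that fitted only the chromosome 14 gene numbered 7 in young and 8 in old, those for chromosome 3 numbered 2 in each library, and those for chromosome 2 numbered 0 in young and 1 in old. The levels below are therefore sums over the 3 genes.

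All members together held 199260 reads in young and 129973 reads in old. Normalized to the total reads of each library, this was 44052 RPM (reads per 1000000 reads of the library) in young and 19519 RPM in old, which came to 4.41% and 1.95% of all reads. miR-124 was thus 2.26-fold lower in the old library, a log2 ratio (old/young) of −1.17 with a 95% counting interval from −1.18 to −1.16. The random sampling model that the study used, which sets each ratio against the sampling of reads, gave z = −237, far past the 0.05 threshold. This test and all tests below treat reads as independent, although reads are PCR products, and they compare these 2 libraries and not the ages. In whole brain, fewer neurons and less miR-124 per neuron cannot be told apart.

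The exact tag made up a small part of miR-124. It was read 1795 times in young (397 RPM) and 842 times in old (126 RPM), a log2 ratio of −1.65 (SE 0.06, counting error, p = 3.48e-180 by the random sampling model and p = 7.67e-180 by an exact binomial test on reads). Its share of the member reads was 0.901% in young (exact Clopper-Pearson 95% interval 0.860 to 0.943) and 0.648% in old (0.605 to 0.693), which differed by Fisher's exact test on reads, two-sided, p = 7.89e-16. A count of this tag alone placed miR-124 at rank 49 in young and rank 65 in old among the 168 distinct starts of known miRNAs. Counted over all tags with the same start, miR-124 ranked 5 in young and 7 in old. Known miRNAs here are the 173 names, star strands left out, whose counts in the study's list were held by 1 tag each. No other miRNA among the 163 with at least 100 reads in each library had a lower share of its exact tag. The median share over these 163 was 38.3% in young and 35.9% in old.

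**Figure D1:**
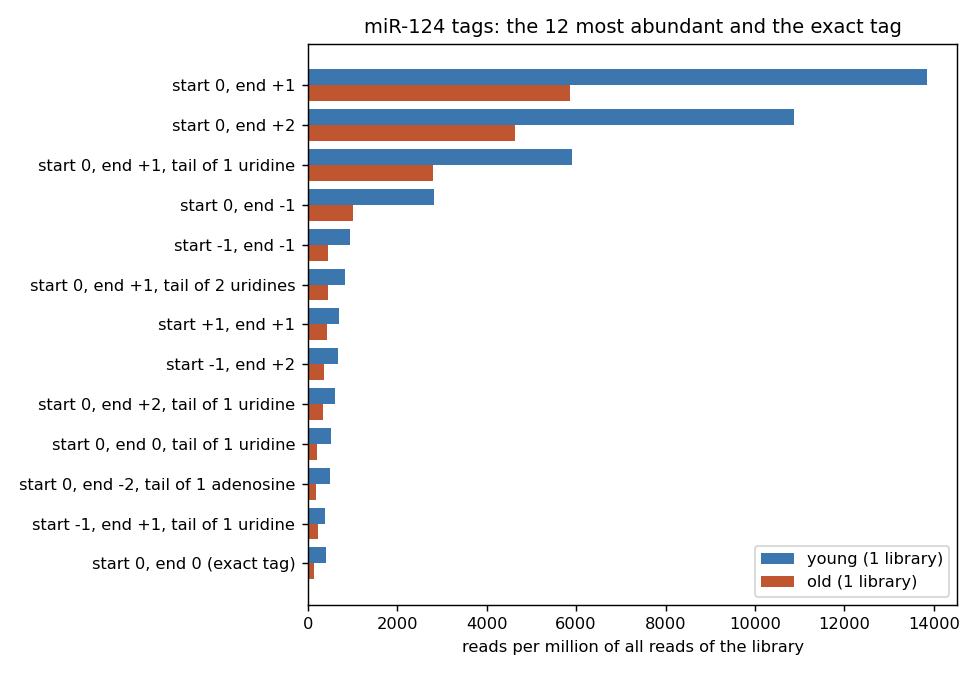
Bars give RPM (horizontal axis, linear from 0) for the 12 most abundant miR-124 tags and the exact tag, young in blue and old in orange, 1 library each with no error bars. Start and end are nucleotides from the first and last base of the exact tag, the end being that of the part that matches the precursor. The tag 1 base longer than the exact tag stood at 13839 RPM in young and 5870 RPM in old, against 397 and 126 RPM for the exact tag.

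The 12 most abundant tags held 87.6% of the member reads in young and 86.8% in old, and all 12 were lower in old. The most abundant was the exact tag with 1 more base of the precursor, with 62598 reads in young and 39087 in old (log2 ratio −1.24, SE 0.01). The tag with 2 more bases followed with 49223 and 30797 reads (log2 ratio −1.23). Both lie past a 2-fold fall. The tag with 1 more base and an added U, which the precursors do not encode, was read 26743 times in young and 18610 times in old (log2 ratio −1.08). When 2 U were added, the counts were 3745 and 3034 and the log2 ratio was −0.86 (SE 0.04). The 19-nucleotide tag that ends 1 base before the exact tag was read 12804 and 6644 times and had the lowest ratio of the 12, at −1.50 (SE 0.02). The short tag with an added A gave 2239 and 1272 reads (log2 ratio −1.37). Within 1 start, these shorter forms thus had lower ratios than the U-ended forms of 22 and 23 nucleotides, and their counting intervals did not overlap.

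Over all members the direction was as follows. Of the 549 tags, 301 were read in both libraries, 155 only in young and 93 only in old, and 179 had been read a single time. Young thus held 456 of the 549 members and old 394. Of all 789591 tags, 372464 were read in young and 505732 in old, the deeper library. These presence counts were not tested. The 154 tags with at least 10 reads in a library could be tested. Of these, 144 were lower in old, where 52% of all 19504 tags with that many reads were lower. A fall of at least 2-fold was found for 82 members, against 27.5% of all tags, and a rise of at least 2-fold for 1 member, against 23.2% of all tags. The first of these counts depended on the depth used: with the TMM and DESeq2 scaling factors described at the end, 27 and 25 of the 154 members were at least 2-fold lower, shares near the 18.7% and 17.3% of all tags. With the random sampling model and Benjamini-Hochberg adjustment over all 19504 tags, 104 members passed 0.05 as lower, against 28.9% of all tags, and 0 passed as higher. The median log2 ratio of the 154 was −1.03, beside −0.06 over all tags tested. Members share precursors and libraries, so these counts describe 1 miRNA and are not independent observations. Of the 154 tags, 8 held an undetermined base past base 18, and all 8 were at least 2-fold lower in old and so among the 82. Over all reads of any origin, 4.57% in young and 1.07% in old held an undetermined base, so these 8 say nothing particular about miR-124. The 1 member that rose 2-fold was a 23-nucleotide tag with 4 reads in young and 13 in old.

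**Figure D2:**
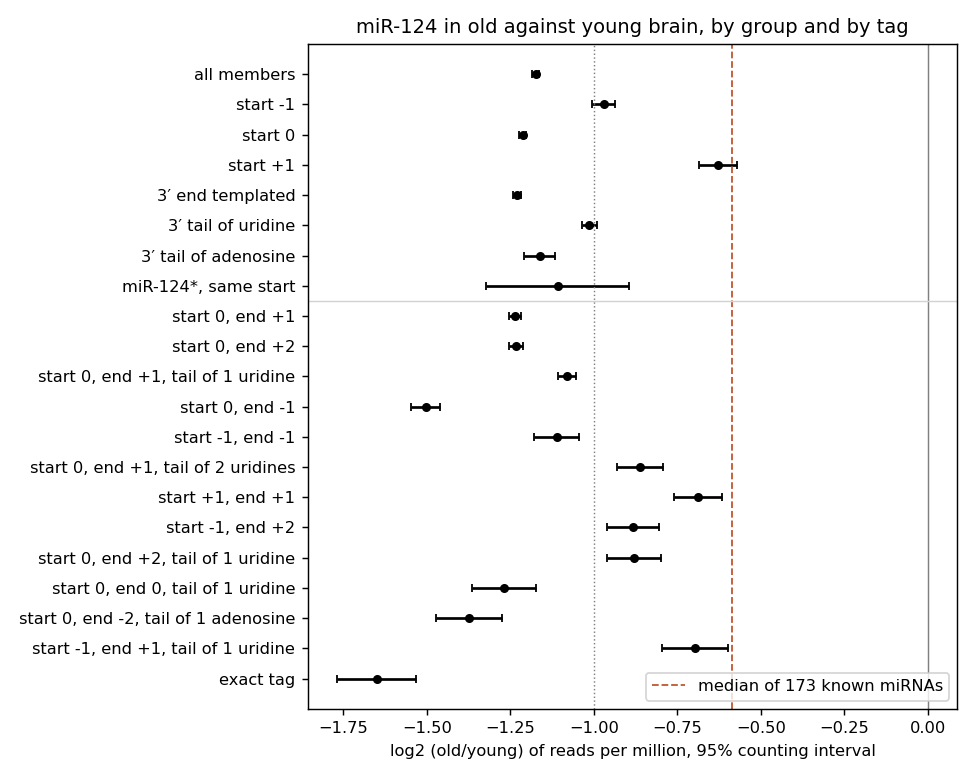
Points give the log2 ratio (old/young) of RPM and bars its 95% counting interval, for sums of miR-124 members above the line and for the 12 most abundant tags and the exact tag below it. The dotted line marks a 2-fold fall and the dashed line the median of 173 known miRNAs (−0.59). All points lie below 0, with the start +1 sum at −0.63 and the exact tag at −1.65.

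Most reads kept the start of the exact tag and with it the seed AAGGCAC. Reads with this start numbered 178300 in young and 113206 in old, 89.5% and 87.1% of the members, and their log2 ratio was −1.21 (SE 0.01). Reads that began 1 base earlier carry the seed TAAGGCA. They numbered 15758 and 11842, or 7.91% and 9.11% of the members, with a log2 ratio of −0.97 (SE 0.02). Reads that began 1 base later carry the seed AGGCACG. They numbered 5021 and 4784, or 2.52% and 3.68%, with a log2 ratio of −0.63 (SE 0.03). The start +1 form therefore fell less than starts 0 and −1 in these libraries. Starts 2 bases away were rare, with 176 and 130 reads at +2 (log2 ratio −0.99, SE 0.17) and 5 and 11 reads at −2, too few to give a direction (exact binomial test on reads, p = 0.631). All shifted starts together rose from 10.5% (10.4 to 10.7) of the members in young to 12.9% (12.7 to 13.1) in old, Fisher's exact test on reads, two-sided, p = 1.43e-96. Their RPM nevertheless fell from 4634 to 2518. Counted in the same way, with any base allowed before the start, a share of starts shifted by 1 base of 10.5% in young placed miR-124 above 140 of the 163 known miRNAs, whose median was 0.969%. That share was higher in old for 91 of the 163.

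The seeds can be set beside all other tags of the libraries. Tags of any origin with AAGGCAC at bases 2 to 8 held 189246 reads in young and 121900 in old, and miR-124 members made up 94.2% and 92.9% of them. No other known miRNA counted here carried this seed, nor did any mature mouse miRNA of the RefSeq table used, in which miR-124 and miR-124* had no entry. The seed of the start −1 form, TAAGGCA, was carried by 17419 young and 13123 old reads, of which members made up 90.5% and 90.2%. In the RefSeq table it is the seed of mmu-miR-5624-3p. It is also the seed of seq_278622_x85, a miRNA candidate at chr16:42303538-42303559 on the minus strand, which the study set beside miR-124 of other species. The candidate was read 40 times in young (8.84 RPM) and 45 times in old (6.76 RPM). Its log2 ratio of −0.39 (SE 0.31) was not told apart from 0 by an exact binomial test on reads, two-sided, p = 0.259. Against 15758 young reads of the start −1 form, its 40 reads were a small part of that seed.

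The 3′ ends were counted for each start. Among reads with the start of the exact tag, 9.52% in young and 7.92% in old ended before the last base of the exact tag. Among start −1 reads, which have 1 more base in front, the share was 44.6% in young and 40.1% in old. Among start +1 reads it was 1.61% and 1.73%. A start +1 read that ends early has at most 18 nucleotides, at the lower edge of the 18 to 30 nucleotides cut from the gel, whereas the main early form of start 0 has 19. The low share at start +1 therefore cannot be told apart from the size selection. The leading start −1 tags were thus a 20-nucleotide tag that ended early (4288 young and 2921 old reads) and a 23-nucleotide tag that ended late (3002 and 2396 reads). Within start 0, the early ends became a smaller share in old (p = 7.29e-50, Fisher's exact test on reads), and within start −1 as well (p = 1.47e-13), while within start +1 the 81 and 83 reads gave p = 0.694 by the exact test.

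**Figure D3:**
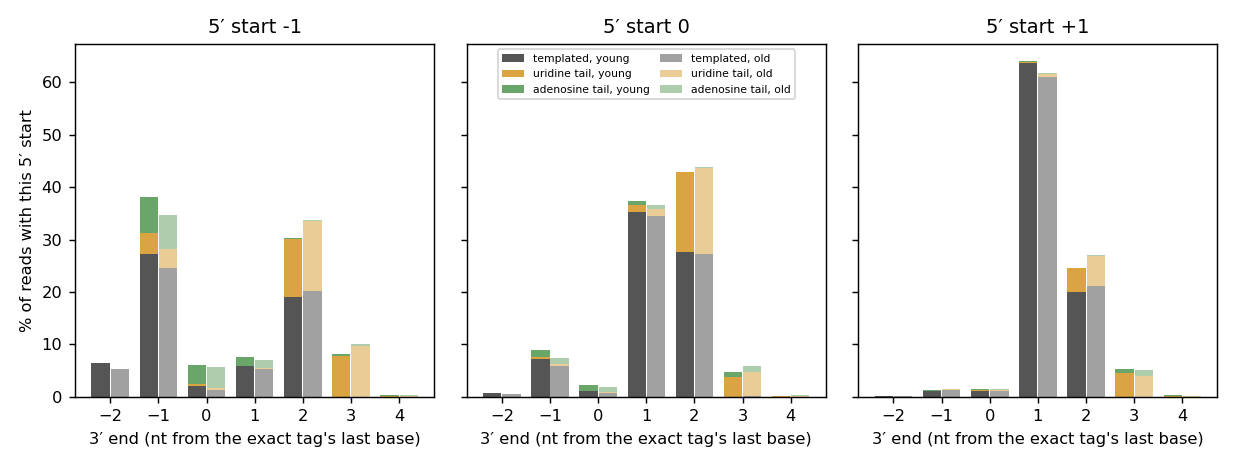
Stacked bars give the share of reads (vertical axis, % of the reads with that start) by the position of the 3′ end, tail included, in nucleotides from the last base of the exact tag, with young on the left and old on the right of each position. Grey marks ends that match the precursors, yellow tails of uridine and green tails of adenosine, and tails of other kinds are left out. Start −1 has its largest bars at −1 and 2, start 0 at 1 and 2, and start +1 at 1.

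Tails that the precursors do not encode became more frequent. Reads that matched the precursor to their last base made up 71.2% (71.0 to 71.4) of the young and 68.5% (68.2 to 68.7) of the old members, Fisher's exact test on reads, two-sided, p = 4.29e-61. Tails of U only were found on 40858 young and 29789 old reads, 20.5% and 22.9% of the members (p = 8.58e-61, Fisher's exact test). Tails of A only were found on 9577 and 6300 reads, 4.81% and 4.85%, and this difference was not told apart from the sampling of reads (p = 0.594, Fisher's exact test). Within start 0, the share of A tails was also counted by where the encoded part ended. That part was ended at the first base that differed from the precursors. Where it ended 2 bases before the exact tag, the share was 42.8% in young and 36.1% in old (p = 1.69e-11, Fisher's exact test). Reads with a changed base that then followed the precursor again were counted there, such as the 21-nucleotide tag with the end ACA (219 young and 321 old reads). That lower share therefore cannot be told apart from a change in such reads. The share of A tails rose from 17.1% to 19.1% where the encoded part ended 1 base before (p = 3.23e-05, Fisher's exact test). Where it ended 2 bases past the exact tag, the share rose from 3.68% to 4.21% (p = 9.25e-05, Fisher's exact test). For U tails within start 0, a tail was borne by 32.1% in young and 34.8% in old of those whose encoded part ended 1 base past the exact tag (p = 2.60e-29, Fisher's exact test). Where the encoded part ended 2 bases past the exact tag, the shares were 5.27% and 6.60% (p = 1.85e-16, Fisher's exact test). Where it ended at the last base of the exact tag, they were 40.7% and 51.4% (p = 1.57e-21, Fisher's exact test). The reads at this last position include tags whose next base was undetermined, such as 1 with 318 reads in young and 0 in old. Such tags lower the young share, so part of that rise comes from them. Where it ended 2 bases before, the share was 10.7% in young and 9.20% in old (p = 0.0122, Fisher's exact test). The reads with a changed base described above were counted there as well. This lower share of U tails therefore cannot be told apart from a change in such reads. Where it ended 1 base before, 252 young and 158 old reads bore a U tail. Their shares were not told apart (p = 0.176, Fisher's exact test). A rise in U tails was therefore not shown at every position. The 3′ adapter that the authors removed begins with a T. A tail of 1 U therefore cannot be told apart from a read without a tail that was trimmed 1 base late. A tail of 2 U does not arise in this way from a read without a tail. It cannot be told apart from a tail of 1 U trimmed 1 base late.

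Among the 151 known miRNAs with at least 100 reads in each library and an annotated precursor, miR-124 had a higher U-tail share than 137 in young and 140 in old. The median of the 151 was 4.58% in young and 4.75% in old. The U-tail share was higher in old for 111 of them, and the difference was smaller than that of miR-124 for 136. The mean 3′ end of the members lay 1.28 nucleotides past the exact tag in young and 1.35 in old, a difference of 0.075 (SE 0.004, counting error). For the 163 known miRNAs, by the same start, the difference was above 0 for 104 and below that of miR-124 for 126, with a median of 0.024. A shift of the 3′ end to longer forms in old was thus seen for the majority of known miRNAs and not for miR-124 alone.

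**Figure D4:**
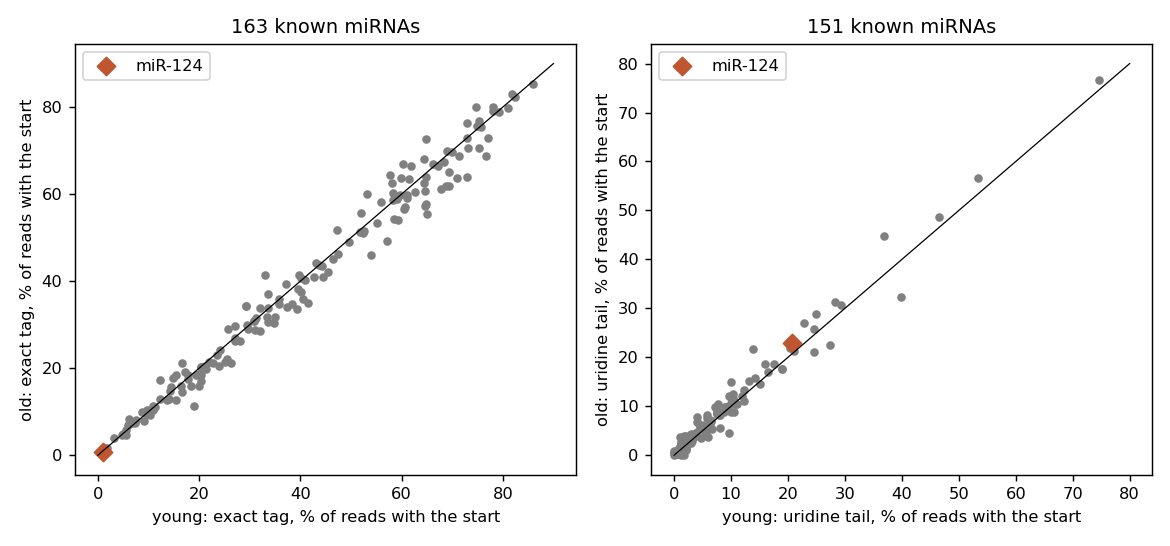
Each grey point is a known miRNA with at least 100 reads in each library, and the diamond is miR-124, with young on the horizontal and old on the vertical axis and the line marking equal shares. The left panel gives the exact tag as a share of all tags with its start (1.01% in young and 0.744% in old for miR-124, the lowest of 163), and the right panel the share of reads with a tail of uridine (20.7% and 23.0%, among the higher of 151).

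miR-124*, the partner strand, fell alongside miR-124. The listed form was read 120 times in young (26.5 RPM) and 73 times in old (11.0 RPM), a log2 ratio of −1.27 (SE 0.21). The form 1 base shorter was read more often, 227 and 129 times. All 25 tags with the same start gave 429 young and 293 old reads, 94.8 and 44.0 RPM, a log2 ratio of −1.11 (SE 0.11, p = 5.67e-25 by the random sampling model and p = 1.62e-24 by an exact binomial test on reads). There were 464 miR-124 reads per miR-124* read in young and 444 in old. The log2 difference of this ratio was −0.07 (SE 0.11), which was not told apart from 0 by Fisher's exact test on reads, two-sided, p = 0.542. Since both strands are counted in the same library, this ratio does not depend on the depth used. Reads with start −3 that matched a precursor numbered 19 in young and 15 in old. They begin in the hairpin loop and run on into miR-124. Reads that began before the star strand numbered 2 and 5. Both were too few to compare.

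By all tags of the start, the order of levels in young was let-7g, let-7c, miR-29a, let-7f, miR-124 and let-7i. let-7a and let-7c share their first 18 nucleotides, so the value under let-7c holds both. miR-124 stood at 39418 RPM there, between let-7f (61894 RPM) and let-7i (27226 RPM). In old it stood at 17001 RPM, just below let-7b (17297 RPM) and above miR-128 (13512 RPM), a miRNA also abundant in neurons. Counting intervals of these neighbours did not overlap, but the closeness of let-7b and miR-124 in old could not be set against a spread between animals. Of the most abundant miRNAs, let-7g, let-7c and let-7f had log2 ratios of 0.29, 0.64 and 1.08, miR-29a of −0.20 and let-7i of −0.42. miR-124 had the lowest log2 ratio among these 6.

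Known miRNAs were mostly lower in the old library. By all tags of the same start, 137 of 173 (79.2%) were lower and 45 (26%) were at least 2-fold lower, and by the exact tag 45 (26%) were at least 2-fold lower and 2 (1.16%) at least 2-fold higher. The median log2 ratio was −0.59 by the same start. A lower ratio than that of miR-124 was found for 20 of the 173 by the same start and for 9 by the exact tag. The 5 miRNAs with at least 100 reads in each library whose log2 ratios were closest to that of miR-124 were miR-320 (−1.22), miR-532-5p (−1.22), miR-434-3p (−1.19), miR-92b (−1.18) and miR-598 (−1.18). This is a likeness over 2 libraries only.

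A list of other miRNAs known from neurons held 17 names, of which 15 were counted, with 14 distinct starts, since 2 miR-129 forms share theirs. Of these starts 12 were lower in old, where 79.2% of all known miRNAs were, and 2 at least 2-fold, where 26% of all were. The median log2 ratio was −0.65, close to the −0.59 of all known miRNAs. miR-128 was at 22807 RPM in young and 13512 RPM in old (log2 ratio −0.76). miR-383 went from 8461 to 3442 RPM (−1.30) and miR-129-5p from 311 to 91.9 RPM (−1.76), the 2 that fell past 2-fold. miR-138, found at synapses, went from 7560 to 4155 RPM (−0.86), and miR-9, a miRNA of neural progenitors and neurons, from 4399 to 2989 RPM (−0.56). miR-132, which follows neuronal activity, went from 224 to 164 RPM (−0.45). miR-137 (261 and 258 RPM, −0.01) and miR-153 (200 and 333 reads, 0.18) were about level, and miR-9*, the partner strand of miR-9, was higher in old, at 395 and 926 RPM (1.23). Only miR-383 and miR-129-5p of the list had a lower ratio than miR-124.

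**Figure D5:**
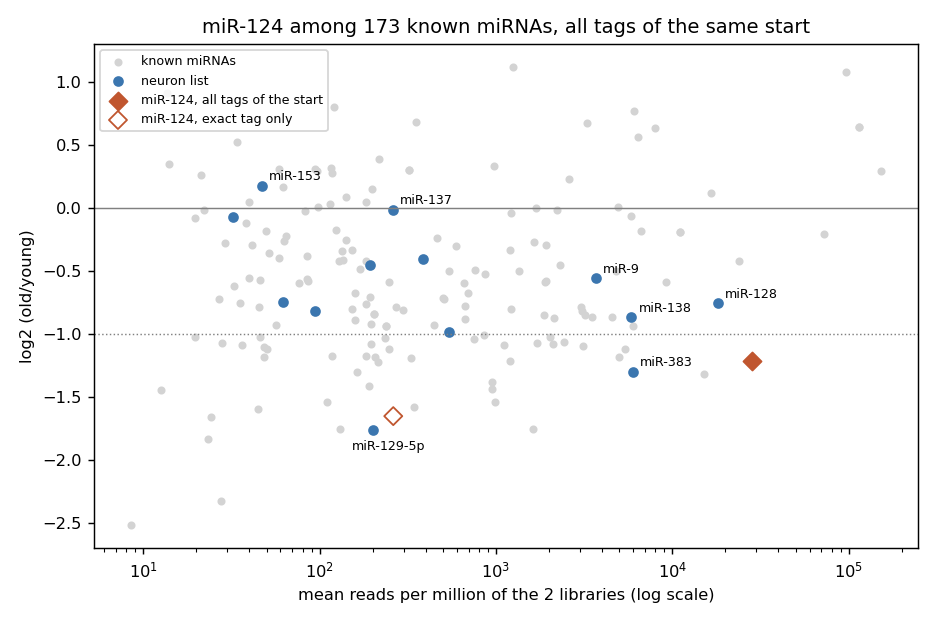
Each point is a known miRNA, with its mean level in the libraries on the horizontal axis (RPM, log scale) and its log2 ratio (old/young) on the vertical axis, all tags of the same start summed. The filled diamond is miR-124 (−1.21), the open diamond its exact tag alone (−1.65), and blue points are the 13 starts of the neuron list that are not star strands, and the dotted line marks a 2-fold fall.

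Lists for other cell types of the brain are given beside this, read against the 79.2% of all known miRNAs that were lower in old. Each list holds few miRNAs, and their part in the miR-124 result was not tested. The oligodendrocyte list (miR-219-5p and miR-338-3p) summed to 1256 RPM in young and 640 RPM in old, with 2 of 2 lower. miR-219-3p was not on this list and was far more abundant, at 11010 RPM in young and 7336 RPM in old. Its log2 ratio of −0.59 was that of the median known miRNA. The astrocyte list, 4 miRNAs, summed to 86030 and 75327 RPM with 3 of 4 lower and a median log2 ratio of −0.11. For microglia and blood, 3 of 6 were counted, at 917 and 629 RPM, with 2 of 3 lower. For the vessel wall, 2 of 4 were counted, at 5945 and 3281 RPM, both lower. Erythrocyte miRNAs, 2 of 3 counted, stood at 566 and 298 RPM, both lower. The pituitary and endocrine list, 3 of 3 counted, stood at 3841 and 2518 RPM with all 3 lower, and miR-204 of the choroid plexus at 67.2 and 22.2 RPM. The muscle list, 2 of 4 counted, stood at 7454 RPM in young and 10867 RPM in old, with miR-1 higher and miR-206 near level. The miRNAs not counted could not be tied to 1 tag through the study's counts.

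The size of the fall depended on the depth to which reads were set, while its direction did not. Set to the summed reads of the known miRNAs, the log2 ratio of all members was −1.39, and set to the total without the counted let-7 tags it was −0.97. The scaling factors of edgeR (TMM) and DESeq2 over the known miRNAs shifted every log2 ratio by 0.52 and 0.62, which left the members at −0.65 and −0.55. With these factors the median of the known miRNAs moved to −0.06 and 0.03, and 127 and 121 of the 154 members tested were lower in old, against 38.5% and 36.1% of all tags. The start +1 form was then at −0.10 and −0.01, the latter within its counting error, and the neuron list had 8 and 7 of 14 starts lower. The number of known miRNAs with a lower ratio than miR-124 stayed at 20, since a scaling moves all alike. Apart from sequencing, the study measured miR-124 by quantitative PCR set to the small RNA U6. It reported a trend similar to that of its sequencing, with error bars from technical repeats.

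GC content also moved with the ratios. Over the 173 known miRNAs the log2 ratio by the exact tag changed by −0.45 for each 10% more GC, as a straight line. The points share libraries. The exact tag has 60% GC, and the line stood at −1.17 there. The 17 known miRNAs with a GC content as high or higher had a median log2 ratio of −1.38. miR-124 itself is among these 17 names, and miR-3107 and miR-486 are held by the same tag. With this line taken off and the mean GC kept, miR-124 members stood at −0.72 and the exact tag at −1.06. For the sum of members, the GC of the most abundant tag, 57.1%, was used. Keeping the mean leaves the general fall of the known miRNAs in these values. The median log2 ratio of the 173 by the exact tag, without the correction, was −0.60.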

How the data were processed

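Small RNAs of 18 to 30 nucleotides were cut from a gel of 10 µg of total RNA of each brain. The authors sequenced reads of 36 nucleotides, aligned them to the mouse genome with SOAP, removed the 3′ adapter allowing 3 mismatches, and deposited raw read counts per distinct tag, without normalization. The build mm9 is also named in the submitters' processing notes. Reads without an alignment were not used here.

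Counts were divided by the total reads of each library, and a count of 0 was set to 0.5. Tags were tested with the formula of the random sampling model of DEGseq, two-sided, at a threshold of 0.05, with Benjamini-Hochberg adjustment over tags with at least 10 reads in a library. edgeR's quasi-likelihood test could not be fitted with 1 library per age. Exact binomial tests, Fisher's exact tests and exact Clopper-Pearson 95% intervals were computed on reads and cover counting error only. A tail was the part of a tag from its first base that did not match a precursor onward, so it can hold a changed base followed by bases of the precursor. The random sampling model and the binomial test were run on simulated counts drawn as independent reads. That is the sampling these tests assume, without spread between animals or PCR copies, so it checks the computation only. Python 3.11.15, numpy 2.4.6, scipy 1.17.1, R 4.3.3, edgeR 4.0.16 and DESeq2 1.42.0 (both for scaling factors) were used.

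The members, marker lists and named miRNAs were chosen with earlier results of these data known. Named were the exact tag, the 12 most abundant members, the most abundant tag of each start, miR-124*, 1 candidate, the lists' members, and the 5 known miRNAs nearest in ratio and the 5 most abundant. Alternatives were other depths, read minimums, shorter or mismatched prefixes, templated tags only, a GC correction and star strands included. For the ratio of all members, those on an undetermined base without mismatch, on a depth without undetermined bases and on any base before the start were added after seeing the data.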

Additional observations from a re-analysis of the deposited data

How the results depend on the processing

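No paired analysis was possible because there was 1 library per age. For the same reason no library could be left out, and the depth of 1795 and 842 reads behind the exact tag limits only the counting error, not the spread between mice. Of the values recomputed under each alternative, 52 kept their direction and their side of the threshold or stayed within 1.5 times the main count. The threshold is that of tests on reads. With the read counts of miR-124 most values lie far past it, so the 52 do not show that sizes were stable. The number of miR-124 reads per miR-124* read changed its sign with tags of at least 10 reads, at a log2 difference of 0.0499 (p = 0.690, Fisher's exact test), and was not past the threshold under any alternative run. The difference in the mean 3′ end was 0.043 nucleotides over templated tags only, against 0.075 over all members. The 45 known miRNAs at least 2-fold lower in old by the exact tag became 70 with the depth of the known miRNAs, 14 with the TMM factor and 12 with the DESeq2 factor, which follows from the shift of all log2 ratios. The log2 ratio of all members ranged from −1.39 to −0.55 over the depths, and that of the exact tag from −1.86 to −1.03.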

Other observations

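Tags with AA in front of the exact start, which the precursors do not encode, are no members. There were 31 such tags with 831 reads in young (184 RPM) and 949 in old (143 RPM), a log2 ratio of −0.37 (SE 0.07, counting error) that became 0.16 with the TMM factor and 0.25 with the DESeq2 factor. Allowing any base in front left the ratio of all members at −1.17.

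Tags with an undetermined base among the first 18 are no members either. Those with an undetermined base at position 2 of the exact start held 7229 reads in young and 353 in old, 3.48% of the members and such tags together in young and 0.270% in old. Over all tags of the libraries, an undetermined base stood at position 2 in 3.90% of reads in young and 0.610% in old. With an undetermined base allowed in the first 18, the log2 ratio of all members was −1.22. Tags of the members with an undetermined tail held 786 reads in young and 5 in old.

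Tags with 1 mismatch or undetermined base in the first 18 numbered 2605, with 22663 reads in young and 11233 in old, a log2 ratio of −1.57 (SE 0.02). Of these, 294 tags with 8445 young and 876 old reads held an undetermined base (log2 ratio −3.83). The ratio of −1.57 is therefore lower than that of the tags with a true mismatch alone. With all 2605 tags counted as members, the log2 ratio of all members was −1.21.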
